A study of Mus musculus with 4 samples.

Results

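The proteasome genes that interferon-gamma (IFN-γ) is known to induce were set against their constitutive counterparts in C2C12, a mouse myoblast cell line whose cells fuse into myotubes in low serum. There were 9 members: Psmb8, Psmb9, Psmb10, Psme1 and Psme2 as the inducible genes, and Psmb5, Psmb6, Psmb7 and Psme3 as the constitutive genes. They were chosen by name, with earlier results of these data known, and every probe whose transcript maps to one of these symbols was taken. This gave 11 of the 39429 probes on the array, and all 9 members were among the 15678 genes bright enough to test. The IFN-γ cells had 3 days of myogenic differentiation with the cytokine at 1 ng/ml, and the control cells had 3 days of differentiation without it. Each of 4 two-colour arrays set IFN-γ RNA in Cy5 against control RNA in Cy3. The measure below is the log2 ratio of IFN-γ over control after loess normalisation within the array, and intensities of the channels are those behind this normalised ratio. Treated samples are given as biological replicates, but nothing states if each array had a control culture of its own. The p-values therefore reflect array-to-array spread alone, and that spread may be technical. On the horse serum content of the medium the labels contradict each other.

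The proteasome is the barrel-shaped protease that degrades proteins tagged with ubiquitin. Its 20S core has outer rings of alpha subunits and inner rings of beta subunits, and only the beta subunits encoded by Psmb6, Psmb7 and Psmb5 cut protein. In cells exposed to IFN-γ, Psmb9, Psmb10 and Psmb8 take those places in newly built cores, which gives the immunoproteasome, a form whose peptide products suit presentation on MHC class I molecules. PA28, a ring made of the products of Psme1 and Psme2, caps and opens the core, and Psme3 encodes PA28 gamma, the chain of a related nuclear cap.

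Median spot intensity was 149.5 to 264 in Cy5 and 79.75 to 97 in Cy3, and the dyes ran the same way on every array, so a dye bias and the treatment cannot be told apart. All 8 skeletal muscle markers, Myod1, Myog and Des among them, were well above background in both channels. After loess 5 of them passed as lower in IFN-γ cells, beside 13.9% of all tested genes, with Des at −1.23 ± 0.26. Under median centring these 5 did not pass as lower, with Des at −0.21 and Myh3 turned to 0.43. The summed intensity of the 8 markers was 181358 to 311940 in IFN-γ cells and 313920 to 405924 in control cells. Leukocytes hold immunoproteasomes without treatment. Of 7 leukocyte markers 6 were tested. After loess 0 were higher, beside 19.8% of all tested genes (limma, with 0 at an unadjusted p under 0.05 and 0 by the methods' t-test). Csf1r at −0.40 and Cd3e at −0.44 passed as lower, beside 13.9% of all tested genes. Under median centring Itgam at 0.90, Csf1r at 0.50 and Cd3e at 0.33 passed as higher, and Ptprc and Adgre1 were among those that passed as lower. The summed intensity of the list was 53920 to 64624 in IFN-γ cells and 49539 to 77643 in control cells, nearly all of it from the Itgam probe, and without Itgam it was 1276 to 1677 in IFN-γ cells and 1566 to 2145 in control cells. The defining marker Ptprc, which encodes CD45, was well above background on 4 arrays in IFN-γ cells and on 1 in control cells, so its log2 ratio of 0.01 ± 0.10 is one of signals near background. The part of leukocyte RNA in the results below was not tested. In bulk RNA a change in the share of a cell type and a change in RNA per cell cannot be told apart.

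All 5 inducible members rose on all 4 arrays, with mean rises of 3.68-fold to 29.1-fold. The 4 constitutive members had mean log2 ratios of −0.16 to 0.23 and did not pass the test. Across all tested genes 19.8% (3104) passed as higher and 13.9% (2173) as lower at an adjusted p under 0.05, the median ratio was 0.03, while 1.79% passed as higher and 0.982% as lower by at least 2-fold, and 52.2% had 1 sign on all 4 arrays. Beside that 1.79%, 5 of 5 inducible members were higher by at least 2-fold, with a median ratio of 2.64. Beside 33.7% of all genes called in either direction, 0 of 4 constitutive members were called (limma, with 1 higher at an unadjusted p under 0.05 and 0 called by the methods' t-test), with a median ratio of 0.01. On each array the lowest inducible member lay above the highest constitutive member, by 1.55, 1.12, 1.82 and 1.64 on the log2 scale for replicates 1 to 4. Centring each array on the median of its spots, which puts the median of all tested genes at 0.70 and gives 10510 genes higher and 2643 lower, turned the means of Psmb5 and Psmb6 positive and made all 4 constitutive members pass as higher. Centring on the tested genes, with 4709 genes higher and 5478 lower, turned the same 2 means positive and made 1 constitutive member pass, Psmb7.

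**Figure D1:**
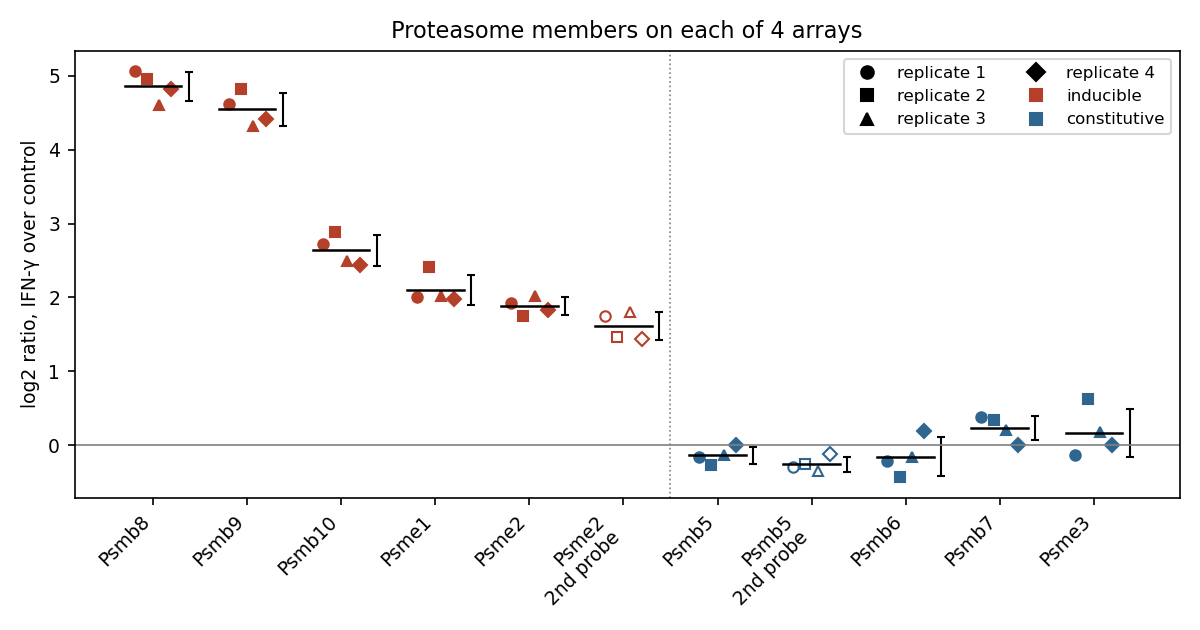
Log2 ratio of IFN-γ over control (y axis) for every probe of the 9 members, with 1 symbol per replicate array, a line for the mean and a bar for the SD over 4 arrays, and open symbols for second probes. On the main probes inducible members lie between 1.74 and 5.07 and constitutive members between −0.44 and 0.62 after loess, whereas median centring puts the constitutive means at 0.88 to 1.24.

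Psmb8 encodes beta5i (also called LMP7), the immunoproteasome subunit that cuts after hydrophobic residues. Its intensity was 33827, 17057, 31953 and 32119.8 in IFN-γ cells on replicates 1 to 4, against 1010.1, 551, 1316 and 1135 in control cells. The groups did not overlap, and replicate 2 was the dimmest in both. The share of all tested genes whose channels do not overlap was not counted, which also limits such statements on the members below. The log2 ratios of 5.07, 4.95, 4.60 and 4.82 averaged 4.86 ± 0.20 (SD, n = 4), a 29.1-fold rise (95% interval 25.0 to 33.8) with an adjusted p of 2.64e-06 (limma). Psmb8 ranked 8 among the 15678 tested genes by ratio.

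Psmb9, which encodes beta1i (LMP2), had intensities of 23886, 12812, 22641 and 19887 in IFN-γ cells, against 968, 452, 1135 and 928 in control cells. No IFN-γ value overlapped a control value, and both genes were well above background in the control cells of all 4 arrays. The Psmb9 log2 ratios of 4.62, 4.83, 4.32 and 4.42 averaged 4.55 ± 0.22, a 23.4-fold rise (adjusted p = 3.80e-06, limma). The ratio of Psmb8 exceeded that of Psmb9 on 4 of 4 arrays, by 0.31 ± 0.14 on the log2 scale. The exact two-sided sign-flip permutation test gave p = 0.125, the smallest that 4 arrays allow.

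Psmb10, which encodes beta2i (MECL-1), rose less than Psmb8 and Psmb9 on every array. It had intensities of 83067, 49148, 49075 and 41747 in IFN-γ cells, against 12528, 6649, 8692 and 7702 in control cells. The groups again did not overlap. Its log2 ratios of 2.73, 2.89, 2.50 and 2.44 averaged 2.64 ± 0.21, a 6.22-fold rise (adjusted p = 2.10e-05, limma). Its ratio lay below that of Psmb9 on 4 of 4 arrays, the ratio of Psmb9 minus that of Psmb10 being 1.91 ± 0.07 (exact permutation p = 0.125).

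**Figure D2:**
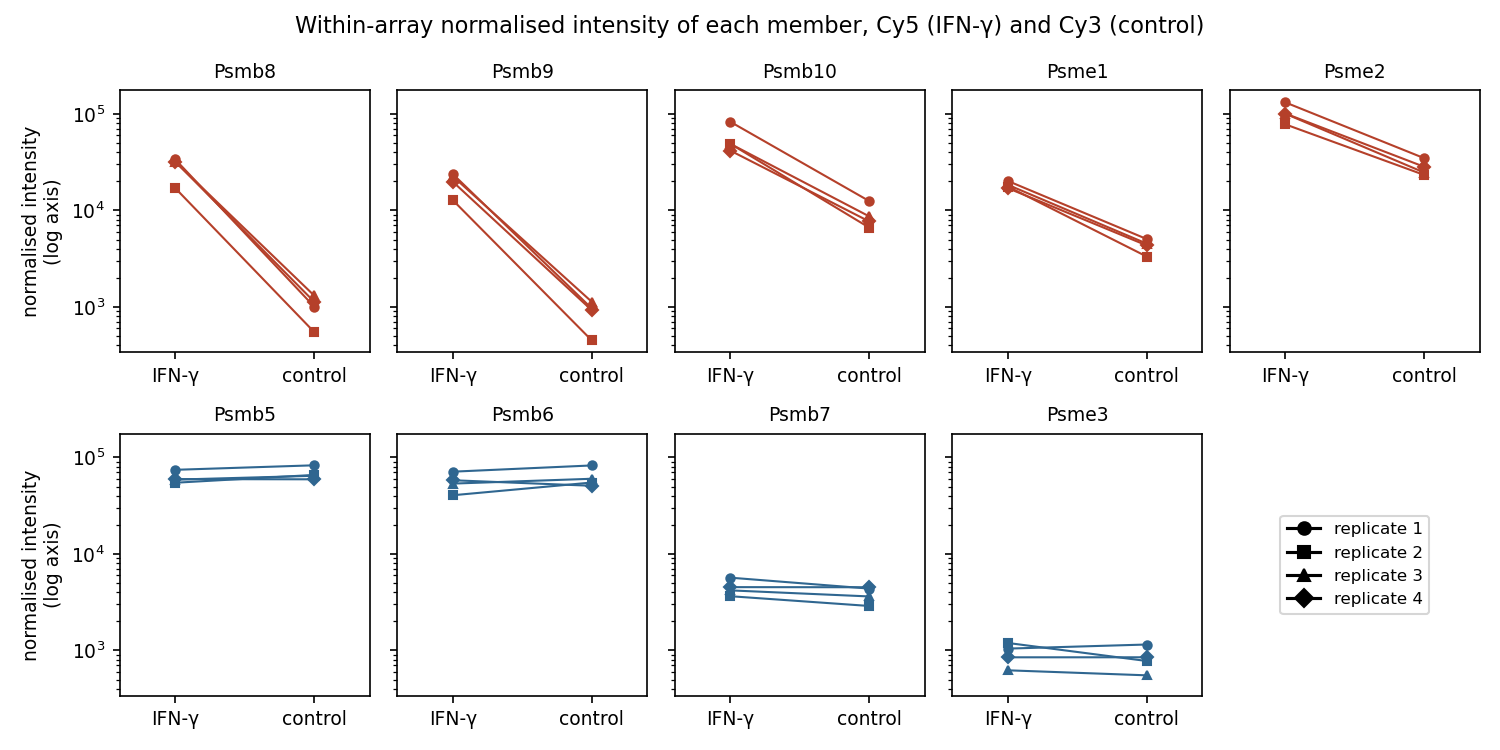
Normalised intensity on a log axis (y) in the IFN-γ channel and in the control channel (x) for the main probe of each member, with 1 line per replicate array. The lines of the 5 inducible members fall from left to right on all 4 arrays while those of the constitutive members stay near level, and intensities of different probes are not to be compared with each other.

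Psmb8 and Psmb9, the members with the highest ratios, lie close together in the MHC region of mouse chromosome 17. In RefSeq (GRCm38.p6) the order of protein-coding genes there is Psmb9, Tap1, Psmb8, and Psmb9 and Tap1 are read in opposite directions from a shared interval. Tap1, which encodes a chain of the peptide transporter into the endoplasmic reticulum, had log2 ratios of 3.75, 3.31, 3.17 and 3.38, with a mean of 3.40 ± 0.25 (adjusted p = 1.39e-05, limma). The control signal of Tap1 was well above background on only 3 of 4 arrays, which limits how well the size of its change is known. The RefSeq promoter windows, from 250 bases before to 50 bases after a gene's start, were searched on both strands for the letters of 3 response elements. These were the gamma-activated site (GAS, TTCNNNGAA), the core of the interferon-stimulated response element bound by interferon regulatory factors (ISRE, here a pair of GAAA half-sites 2 bases apart) and the antioxidant response element bound by Nfe2l1 and Nfe2l2 (ARE, TGACNNNGC). Of 32817 windows 8.29% held the GAS letters, 3.43% the ISRE letters and 12.4% the ARE letters, and no match given here overlapped another. Windows were present for 8 of the 9 members, and Psmb7 had no entry. The stretches before the start of Psmb8, of Psmb9 and of Psmb5, the constitutive partner of Psmb8, are shown to set the members with the highest ratios beside a constitutive partner, with matches in capitals.
Psmb8 upstream stretch, chr17:34197945-34198194, plus strand, GRCm38.p6: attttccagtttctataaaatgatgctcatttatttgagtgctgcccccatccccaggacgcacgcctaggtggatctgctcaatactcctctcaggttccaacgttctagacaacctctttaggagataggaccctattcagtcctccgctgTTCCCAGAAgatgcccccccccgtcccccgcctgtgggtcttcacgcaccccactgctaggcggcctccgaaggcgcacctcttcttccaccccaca
Psmb9 and Tap1 shared interval, chr17:34187331-34187555, minus strand, GRCm38.p6: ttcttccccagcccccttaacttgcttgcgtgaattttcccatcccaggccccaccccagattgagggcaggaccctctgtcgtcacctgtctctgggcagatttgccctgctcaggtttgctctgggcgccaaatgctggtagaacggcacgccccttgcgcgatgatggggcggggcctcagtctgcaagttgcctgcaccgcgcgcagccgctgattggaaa
Psmb5 upstream stretch, chr14:54617996-54618245, minus strand, GRCm38.p6: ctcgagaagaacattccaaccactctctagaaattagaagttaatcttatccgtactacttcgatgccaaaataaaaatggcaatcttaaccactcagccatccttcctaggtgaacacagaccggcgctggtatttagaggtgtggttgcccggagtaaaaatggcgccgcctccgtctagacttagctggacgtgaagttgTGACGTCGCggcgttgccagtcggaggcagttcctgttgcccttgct
The Psmb8 stretch held 1 match to the GAS letters, at positions −97 to −89 from the start of the gene. The Psmb5 stretch held 1 match to the ARE letters, at positions −47 to −39. The windows of Psmb9, Tap1, Psmb10, Psme2 and Psme3 held no match to these letters. A match is a description of the sequence, and binding was not measured.

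Psme1, which encodes the alpha chain of PA28, was measured by 1 probe printed as 10 spots on each array. It had intensities of 20236, 17721, 18453 and 17051 in IFN-γ cells, against 5060.1, 3333, 4536 and 4347 in control cells. The groups did not overlap, and the control value of replicate 2 was the lowest. Its log2 ratios of 2.00, 2.41, 2.02 and 1.97 averaged 2.10 ± 0.21, a 4.29-fold rise (adjusted p = 5.28e-05, limma). The 10 spots spanned 1.94 to 2.03 on replicate 1, 2.33 to 2.50 on replicate 2, 1.97 to 2.05 on replicate 3 and 1.93 to 2.03 on replicate 4, so replicate 2 stood above the other arrays in every spot. The window of Psme1 held 1 match to the ISRE letters, on the strand opposite to the gene, at positions 10 to 19 after the start, and the short site is shown with the match in capitals.
Psme1 site, chr14:55578503-55578512 in capitals, plus strand, GRCm38.p6: agctgtgcTTTCGCTTTCccttcccg

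Psme2, which encodes the beta chain of PA28, had intensities of 131841, 78094, 100602 and 101102 in IFN-γ cells, against 34818, 23344, 24728 and 28349.5 in control cells. The lowest IFN-γ value, on replicate 2, was above the highest control value. Its log2 ratios of 1.92, 1.74, 2.02 and 1.83 averaged 1.88 ± 0.12, a 3.68-fold rise (adjusted p = 3.02e-05, limma). A second, dimmer probe of Psme2 had log2 ratios of 1.75, 1.46, 1.81 and 1.44, with a mean of 1.61 ± 0.19 (adjusted p = 0.000133 with each probe tested). It was lower than the first probe on 4 of 4 arrays, with a mean difference of −0.27 ± 0.10 (exact permutation p = 0.125). RefSeq also lists Psme2b, a copy of Psme2, and whether either probe binds its transcript was not tested.

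The PA28 genes lie close together on chromosome 14, in the order Psme1, Emc9, Psme2 among protein-coding genes. Psme1 minus Psme2 was 0.22 ± 0.30, positive on 3 of 4 arrays and at −1.38e-05 on replicate 3 (exact permutation p = 0.25). With 4 arrays this test cannot go below 0.125, so it cannot decide if the 2 ratios differ. Psmb10 lay above Psme1 on 4 of 4 arrays, by 0.54 ± 0.13 on the log2 scale (exact permutation p = 0.125). By mean ratio the inducible members thus ran in the order Psmb8, Psmb9, Psmb10, Psme1 and Psme2, with each step but the last in 1 direction on every array.

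Psmb5 encodes beta5, the constitutive subunit that cuts after hydrophobic residues. It had intensities of 74497, 54738, 58933 and 59669.7 in IFN-γ cells, against 82966, 65939, 64612 and 59402 in control cells. The groups overlapped. Its log2 ratios of −0.16, −0.27, −0.13 and 0.0065 averaged −0.14 ± 0.11 (95% interval −0.31 to 0.03, adjusted p = 0.176, limma). A second, dimmer probe of Psmb5 had −0.30, −0.25, −0.36 and −0.12, with a mean of −0.26 ± 0.10, and passed as lower when each probe was tested (adjusted p = 0.0295, limma).

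Psmb6 encodes beta1, which cuts after acidic residues. It had intensities of 71254, 40605, 53622 and 58082 in IFN-γ cells, against 82683, 55000.4, 60165 and 50909.7 in control cells. The groups overlapped, with IFN-γ lower on replicates 1 to 3 and higher on replicate 4. The log2 ratios of −0.21, −0.44, −0.17 and 0.19 averaged −0.16 ± 0.26 (95% interval −0.42 to 0.10, adjusted p = 0.302, limma). The Psmb6 window held 1 match to the ARE letters, at positions −9 to −1 from its start.
Psmb6 site, chr11:70525348-70525356 in capitals, plus strand, GRCm38.p6: aaagagagTGACGGAGCgctttacg

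Psmb7 encodes beta2, which cuts after basic residues. It had intensities of 5682, 3651, 4196 and 4534 in IFN-γ cells, against 4379, 2893, 3631 and 4521 in control cells. The groups overlapped between arrays, although IFN-γ was the higher channel within each. The log2 ratios of 0.38, 0.34, 0.21 and 0.0040 averaged 0.23 ± 0.17 (95% interval 0.033 to 0.43, adjusted p = 0.0738, limma).

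Psme3, which encodes PA28 gamma, had intensities of 1046, 1196, 623 and 849.6 in IFN-γ cells, against 1153, 778, 553 and 850.1 in control cells. The groups overlapped and the arrays differed in sign. The log2 ratios of −0.14, 0.62, 0.17 and −0.00081 averaged 0.16 ± 0.33 (95% interval −0.15 to 0.48, adjusted p = 0.369, limma). Psme3 had the widest spread of the 9 members, and a change of up to 0.48 on the log2 scale lies inside its interval.

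Each inducible member was next compared with its constitutive partner on the same array, which gave 5 differences of log2 ratios. The difference was positive on 4 of 4 arrays in all 5 pairs. With 4 arrays the exact two-sided sign-flip permutation test cannot go below 0.125, and it gave that value for each pair, also after Benjamini-Hochberg adjustment over the 5. Among the catalytic pairs, Psmb8 minus Psmb5 was 5.22, 5.22, 4.73 and 4.82, with a mean of 5.00 ± 0.26, a 32.0-fold shift of the ratio. Psmb9 minus Psmb6 was 4.84, 5.26, 4.48 and 4.23, with a mean of 4.70 ± 0.45, or 26.1-fold. Psmb10 minus Psmb7 was 2.35, 2.55, 2.29 and 2.43, with a mean of 2.41 ± 0.11, or 5.30-fold. The beta5 and beta1 pairs shifted by more than the beta2 pair on every array. Among the PA28 chains, Psme1 minus Psme3 was 2.14, 1.79, 1.85 and 1.97, with a mean of 1.94 ± 0.15, or 3.83-fold. Psme2 minus Psme3 was 2.06, 1.12, 1.85 and 1.84, with a mean of 1.72 ± 0.41, or 3.29-fold. Both PA28 differences share the Psme3 probe, so the low Psme2 value on replicate 2 stands beside the high Psme3 ratio there. A shift shared by all probes of an array cancels in these differences.

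**Figure D3:**
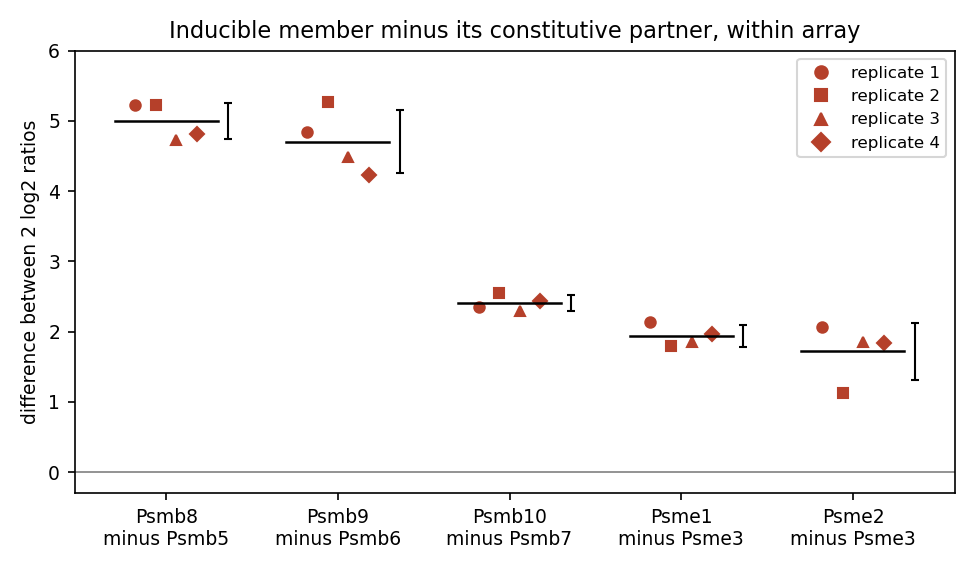
Difference between the log2 ratio of an inducible member and that of its constitutive partner (y axis) for 5 pairs, with 1 symbol per replicate array, a line for the mean and a bar for the SD over 4 arrays. Every point is above 0, from 1.12 for Psme2 minus Psme3 on replicate 2 to 5.26 for Psmb9 minus Psmb6 on the same array.

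The other genes of the proteasome had smaller ratios than the inducible members. Of 32 further structural subunits 30 were tested, of which 14 passed as higher and 1 as lower, beside 19.8% and 13.9% of all tested genes, and 15 did not pass, with a median log2 ratio of 0.26 beside 0.03 for all genes. Beside 1.79% of all genes, 0 of the 30 were higher by at least 2-fold. Their ratios ran from −0.34 for Psmd4, a ubiquitin receptor of the 19S cap, to 0.96 for Psmb2, and Psmd4 turned to 0.70 under median centring, the same as the median of all genes there.

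Of 8 genes of the alpha ring, which gates the core, 7 were tested and 6 passed as higher, beside 19.8% of all genes, with a median of 0.47. Psma1 had 0.64 ± 0.14, Psma5 had 0.61 ± 0.16 and Psma7 had 0.47 ± 0.32, while Psma2 at 0.26 ± 0.30 did not pass. The count of 6 was 4 with the scanner software's own ratios and 5 by the methods' t-test. Of 5 other beta subunits, which are the non-cutting Psmb1 to Psmb4 and the thymus subunit Psmb11, all but Psmb11 were tested, and 3 passed as higher, beside 19.8% of all genes, with a median of 0.35. Psmb2 had 0.96 ± 0.38, Psmb4 had 0.42 ± 0.09 and Psmb1 had 0.28 ± 0.17, whereas Psmb3 had −0.33 ± 0.25 and did not pass (adjusted p = 0.0532, limma; 0.70 under median centring). The count of 3 was 2 with the scanner software's ratios, with plain background subtraction and without replicate 1, 3 or 4. It was 4 under median centring. Without replicate 2, or with probes averaged per gene, 1 of these subunits passed as lower.

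The 19S cap recognises and unfolds substrates. Of its 6 ATPases 1 passed, Psmc6 at 0.60 ± 0.18, a share near the 19.8% of all genes, with a median of 0.09. The brightest of the rest, Psmc3, had −0.02 ± 0.05 (1.03 under median centring). The ATPase count of 1 was 6 under median centring and 6 with centring on the tested genes. Of all 15678 genes, 10510 and 4709 were called higher under these centrings. Of the cap's 13 non-ATPase subunits 4 passed as higher and 1 as lower, beside 19.8% and 13.9% of all genes, with a median of 0.22. Psmd14, which removes ubiquitin from substrates, had 0.38 ± 0.13, Psmd6 had 0.32 ± 0.21 and Psmd4 had −0.34 ± 0.11, while Psmd3 at −0.01 ± 0.24 did not pass (1.02 under median centring). The count of 4 was 0 with the scanner software's ratios, 1 with plain background subtraction, 2 by the methods' t-test, 2 without replicate 1 and 1 without replicate 3 or replicate 4. It was 5 without replicate 2, 11 with centring on the tested genes and 13 under median centring. For Psmd12, singled out after its values were seen, the probes disagreed in sign at 0.26 and −0.47.

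Assembly chaperones build the core and the cap, and 2 of 8 tested passed as higher, a share near the 19.8% of all genes, with a median of 0.18. These were Psmd5 at 0.55 ± 0.22 and Psmg4 at 0.26 ± 0.09. Pomp, the maturation protein that new cores need, had 0.21 ± 0.27 and did not pass. A second, dimmer probe of Pomp had the opposite sign, at −0.20, and did not pass either. The count of 2 was 0 without replicate 3, 4 without replicate 2 or with probes averaged per gene, and 1 without replicate 1 or 4, with the scanner software's ratios, with plain background subtraction or by the methods' t-test. With centring on the tested genes it was 5, and under median centring 8. Of 7 tested genes for other caps, deubiquitinases and control factors, 1 passed as higher and 1 as lower, beside 19.8% and 13.9% of all genes. Nfe2l2, a regulator of antioxidant and proteasome genes, was higher at 0.60 ± 0.05 over 3 arrays, with replicate 3 left out as an outlier spot. Ecpas, which encodes a proteasome adaptor, was lower at −0.70 ± 0.24, though at −0.05 it did not pass under median centring. Usp14, a deubiquitinase of the cap, had 0.16 ± 0.10 and did not pass. A second, dimmer probe of Usp14 had 0.39 and passed as higher when each probe was tested (adjusted p = 0.00833, limma). With probes averaged per gene 2 of the 7 were higher, beside 3167 of all 15678 genes. With centring on the tested genes 4 were higher and 1 lower, and under median centring 6 were higher. Unless another treatment is named, counts here are after loess, and under median centring the medians of all 6 proteasome lists exceeded 1.

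**Figure D4:**
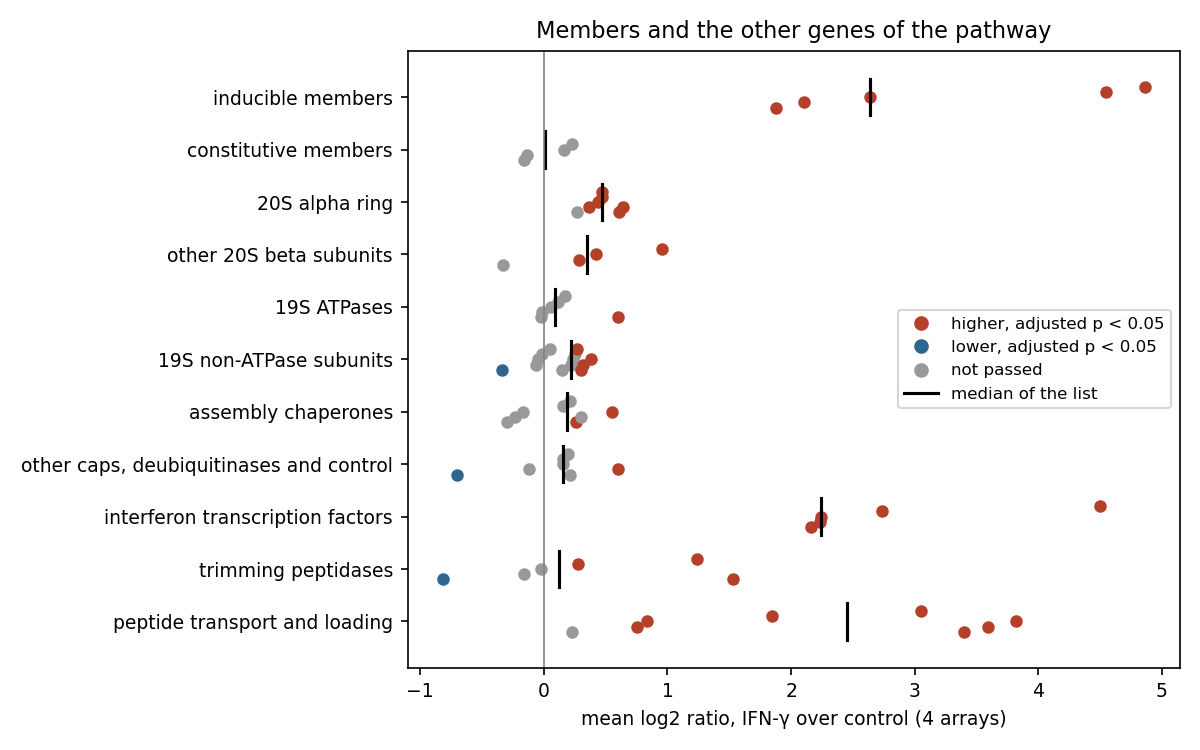
Mean log2 ratio of IFN-γ over control after loess (x axis) for each gene tested in the member groups and 9 pathway lists (y axis), coloured by call, with a bar at the list's median. Constitutive members and other proteasome genes lie between −0.70 and 0.96, while inducible members, interferon transcription factors and most genes of peptide transport and loading lie further right; median centring moves all lists up.

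The genes upstream and downstream of the immunoproteasome were read on the same arrays. Of 6 transcription factors of the interferon response 5 were tested and 5 passed as higher, beside 19.8% of all genes, with a median log2 ratio of 2.24. Nlrc5, the activator of MHC class I and immunoproteasome genes, had 4.79, 4.40, 4.39 and 4.41, with a mean of 4.50 ± 0.19 (adjusted p = 2.74e-06, limma). Irf1 had a mean of 2.74 ± 0.20 and Irf9 a mean of 2.24 ± 0.11. Second, dimmer probes read much lower, at 0.71 for Nlrc5 and 0.29 for Irf1, so the size of these changes depends on the probe. Their mean log2 intensity over both channels was 7.26 for Nlrc5 and 6.38 for Irf1, beside 11.1 and 14.5 for the main probes.

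Of 8 genes of peptide transport and MHC class I loading 7 passed as higher, beside 19.8% of all genes, with a median of 2.45. The count of 7 was 6 without replicate 1 or replicate 3, and 6 of 7 tested when both channels had to be above background. Under median centring or centring on the tested genes it was 8. B2m, the light chain of MHC class I, had a mean of 3.82 ± 0.43 and Tap2, the partner chain of Tap1, a mean of 3.59 ± 0.17. Canx, a chaperone of the endoplasmic reticulum, had 0.23 ± 0.16 over 3 arrays and did not pass. Of 6 tested peptidases that trim or destroy proteasome products, 3 passed as higher and 1 as lower, beside 19.8% and 13.9% of all genes. Erap1, which trims peptides in the endoplasmic reticulum, was higher by 1.53 ± 0.23 after loess, or 2.89-fold (adjusted p = 0.000319, limma). Its log2 ratio was 1.11 with centring on the tested genes and 1.79 under median centring. The control signal of Erap1 was not well above background on any array, so the size of its change is uncertain. Lap3, a leucine aminopeptidase, was higher by 1.24 ± 0.09, and Thop1, which destroys peptides in the cytosol, was lower at −0.82 ± 0.18 after loess and at 0.15 under median centring, where it did not pass. Npepps, a cytosolic aminopeptidase, had −0.16 ± 0.19 and did not pass (0.85 under median centring). A second, slightly dimmer probe of Npepps had −0.40 after loess and passed as lower when each probe was tested (adjusted p = 0.0156, limma). Without replicate 2, or with probes averaged per gene, 2 peptidases were lower. The count of 3 higher was 2 with the scanner software's ratios, with plain background subtraction or by the methods' t-test. It was also 2 without replicate 1, 3 or 4, and 2 of 5 tested when both channels had to be above background. With centring on the tested genes it was 4, and under median centring 5, with 0 lower.

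Genes whose ratios followed the members most closely were found by the root mean square difference over 4 arrays, among 15049 genes measured on all of them. Nearest to the mean profile of Psmb8, Psmb9 and Psmb10, which averaged 4.02, were Parp14 at a distance of 0.15, Gbp2b at 0.19, Oas1a at 0.30, Oasl2 at 0.30 and Cxcl9 at 0.31. Nearest to the mean profile of Psme1 and Psme2, which averaged 1.99, were Ifi204 at 0.12, Parp10 at 0.13, Cenpj at 0.16, Cxcl1 at 0.18 and Snx10 at 0.20. With 4 arrays this distance reflects mostly a like mean ratio, and it is given as a description.

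The calls of the inducible members held in 14 of 14 alternative treatments of the data. The log2 ratio of Psmb8 ranged from 4.79 to 5.87 and that of Psmb9 from 4.46 to 5.56. Psmb10 ranged from 2.55 to 3.66, Psme1 from 2.00 to 3.11 and Psme2 from 1.75 to 2.92, or from 1.61 if its second probe is counted. The highest value of each came from median centring, under which the median of all tested genes was itself 0.70. Relative to that median, Psmb5 lay 0.21 higher, Psmb6 0.18, Psmb7 0.54 and Psme3 0.34. The differences between partners ranged from 4.92 to 5.13 for Psmb8 minus Psmb5, 4.52 to 4.94 for Psmb9 minus Psmb6 and 2.36 to 2.47 for Psmb10 minus Psmb7. For the PA28 chains they ranged from 1.87 to 2.08 for Psme1 minus Psme3 and from 1.58 to 1.92 for Psme2 minus Psme3.

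**Figure D5:**
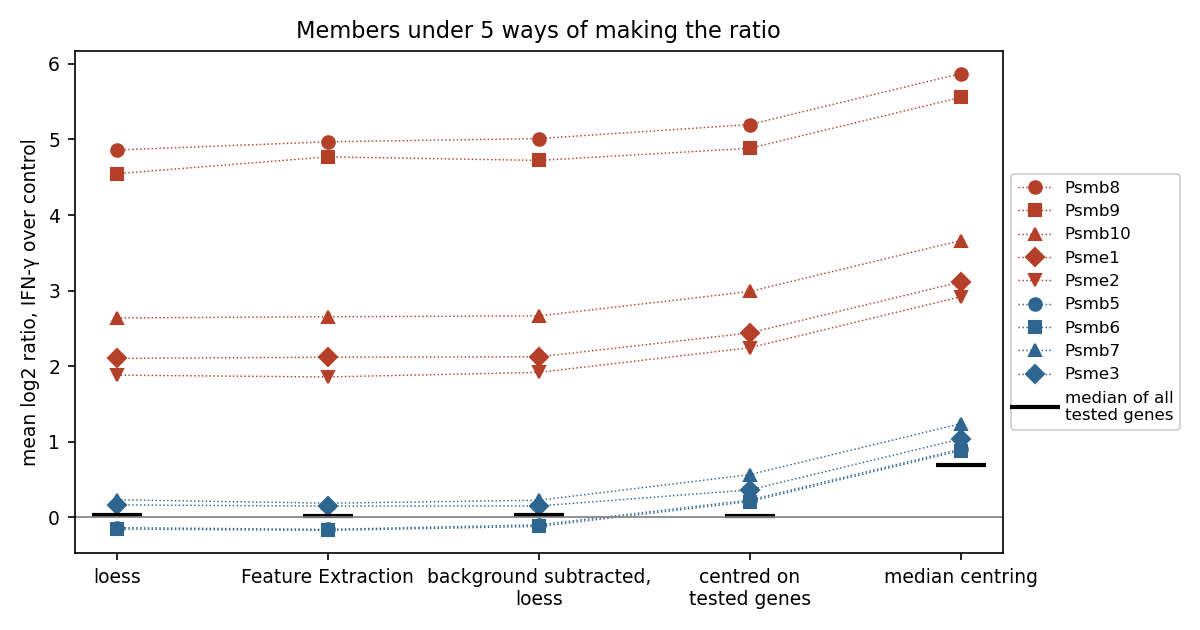
Mean log2 ratio of IFN-γ over control (y axis) of each member under loess and 4 other ways of making the ratio (x axis), with a black bar at the median of all tested genes. The inducible members stay far above the constitutive members throughout, while Psmb5 and Psmb6 change sign when arrays are centred on their median or on the tested genes.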

How the data were processed

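RNA of C2C12 cells was hybridised to 4 two-colour Agilent arrays, 1 per treated replicate. The scanner files hold intensity values for each spot and a log10 ratio of Cy5 over Cy3, for which the submitters' processing notes name Agilent Feature Extraction 10.7.3.1. The deposited value table is log2: set against the scanner's log10 ratios it had a slope of 3.32, the direction Cy5 over Cy3 and column medians of −0.125 to −0.105, and its centring is unknown. The medians of the spot and background intensity columns deposited by the authors were read here, corrected with normexp (offset 50) and normalised by loess within arrays in limma 3.58.1 (R 4.3.3). Control spots and outlier flags were left out, and 0 spots were saturated. Spots of a probe were averaged. Of 39429 probes, 26055 got 1 gene symbol, 0 several and 13374 none, through the accessions in RefSeq's table for GRCm38.p6; the file headers name mm9, so only promoter windows carry coordinates, in RefSeq's build. The brightest probe stood for a gene. A gene was tested if its probe was well above background on at least 3 of 4 arrays in the same channel (15678 of 19751 genes). Ratios were tested against 0 with lmFit and eBayes and Benjamini-Hochberg adjustment over all tested genes, called at 0.05. The fit was tested on simulated data. Probe numbers and brightness limit precision on arrays, and levels of different probes were not compared.

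The members and gene lists were chosen with earlier results of these data known. Named were all members and, of each list, the 3 called genes with the largest change and the brightest gene not called; nearest genes were the 5 at the smallest distance. Alternatives were median centring, centring on the tested genes, Feature Extraction's ratios, background subtraction, the authors' value table, a stricter filter, no filter, the mean of a gene's probes, each probe, saturated spots left out, each replicate left out and the methods' t-test.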

Additional observations from a re-analysis of the deposited data

Results flagged for a closer look

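Of 53 genes and pair differences checked, 6 had 1 array standing apart from the other 3 by more than Dixon's 95% limit for 4 values (0.829), and chance flags about 1 in 20 groups. Psme1 had a log2 ratio of 2.41 on replicate 2, above the other arrays. Replicate 2 was also the array apart, on the low side, for Psma1 at 0.43 and Psmd5 at 0.22, and its ratios had the lowest mean correlation with the other arrays, 0.69 beside 0.80 to 0.84. Psmg4 stood apart at 0.39 on replicate 4. Nlrc5 at 4.79 and Cxcl9 at 4.22 stood apart on replicate 1, both on the high side.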

How the results depend on the processing

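The 5 inducible members were called higher in 14 of 14 alternatives, and no pair difference changed sign. The number of genes called higher (3104) was 10510 under median centring and 4709 with centring on the tested genes, and 1594 to 4060 with each replicate left out, lowest without replicate 3. The number called lower (2173) was 2643 under median centring, 5478 with centring on the tested genes and 927 to 2981 with each replicate left out, again lowest without replicate 3; without replicate 1 it was 1299 and without replicate 4 it was 1081, where 1803 were higher. Constitutive members called higher (0) numbered 4 under median centring and 1, Psmb7, with centring on the tested genes. Under these 2 centrings Psmb5 had a log2 ratio of 0.90 and 0.23, and Psmb6 0.88 and 0.21, both reversed in sign, while the median of all tested genes was 0.70 and 0.02. The methods' t-test called 2576 genes higher and 1492 lower after Benjamini-Hochberg adjustment. It was run as an unpaired test of the Cy5 against the Cy3 intensities, so it ignored that both channels share an array. The cause of these moves was not tested, though fewer arrays enter each fit without a replicate. Replicate 2 left out raised the alpha ring count to 7, and replicate 1, 3 or 4 left out gave 4. No pairing beyond that of the 2 channels of an array was possible, because the labels hold a single group. Each array's ratio already pairs its channels.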

Other observations

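Markers of other cell types gave these values. Of 3 tested fibroblast markers, Col1a1 at 0.46 ± 0.29 and Pdgfra at 0.67 ± 0.17 passed as higher in IFN-γ cells, beside 19.8% of all tested genes. The fibroblast list's summed intensity was 65726 to 81388 in IFN-γ cells and 41486 to 72572 in control cells. Of 2 tested endothelial markers Kdr was lower at −1.02 ± 0.28, beside 13.9% of all tested genes (−0.02 and not passed under median centring). Cdh5 was not well above background on any array. Their part in the results on the proteasome genes was not tested.

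Irf1, whose product binds the ISRE, has 2 windows in the RefSeq promoter table, and 1 of them held a match to the GAS letters at positions −90 to −82 from that start.
Irf1 site, chr11:53769924-53769932 in capitals, plus strand, GRCm38.p6: agcctgatTTCCCCGAAatgatgag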
